A study of Mus musculus with 36 samples.

Results

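Footprint peaks in 3' untranslated regions (3' UTRs) were few, and most of them lay where a second annotated feature, or a copy of a coding sequence, occupied the same bases. Of 275825 ribosome-protected fragment (RPF) peaks placed on mouse transcripts, 1597 peaks (0.579%) had their interval middle 3' of the stop codon on the same Ensembl transcript, by the coding sequence (CDS) annotation of GENCODE vM21. They fell on 251 of the 6201 genes with any peak. Peaks of different libraries with middles within 6 nt of a common centre were joined into a site, and 1541 of the peaks fell on 781 sites centred past the stop codon. The other 56, none over 6 nt past the stop codon, belonged to 37 sites centred at or before it, which the counts of 3' UTR sites below leave out. Coding sequence of another transcript, on either strand, covered the middle of 1038 of the 1597 peaks (65.0%). A near-identical copy of a coding sequence from elsewhere in the genome lay at 127 (7.952%). For 414 peaks (25.92%) on 172 genes the search found no such coding sequence at the middle, no structural RNA gene and no such copy. These are described below as peaks at no other feature, though near the stop codon their intervals can reach their own coding sequence. Large-subunit rRNA was not among the features searched.

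The 12 peak lists came from whole brains of mice at postnatal day 5, with 10 brains pooled per preparation, digested by the standard nuclease protocol with 10 mM MgCl2. Ribosomes were taken either from the pellet of a sucrose gradient, which holds dense ribosome clusters and is labelled Granule, or from fraction 5/6, which holds polysomes and is labelled Polysome. Mice were C57BL/6 wild type (WT) or carried the FMR1 knockout (KO), which removes FMRP, an RNA-binding protein of polysomes and neuronal RNA granules. There were 3 libraries of WT pellet, 3 of KO pellet, 3 of WT fraction 5/6 and 3 of KO fraction 5/6. The KO is constitutive and the material whole brain, so no result belongs to 1 cell type, and the study describes the pellet libraries as separate preparations, while the labels do not say so, nor for fraction 5/6. Where libraries share a preparation, p-values measure just the spread between libraries. Per the study's methods, replicates of the same condition were pooled after linker ligation, before reverse transcription, rRNA depletion and PCR. An effect of genotype or fraction therefore cannot be told apart from an effect of the pool in any comparison below. Neuronal markers varied in level. Tubb3, neuronal beta-tubulin, stood at 2014.2 to 4135.0 CPM (gene counts scaled to each library's total without Cdk8). Of the other neuronal markers, Snap25 stood at 328.8 to 718.5 CPM, but Syt1 at just 25.32 to 72.89. Glial RNA was present (Aldh1l1, an astrocyte enzyme, 124.9 to 322.6).

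Ribosomes normally leave an mRNA at the stop codon, so a 3' UTR carries few of them. Protected fragments can still come from there, by readthrough of the stop codon, by ribosomes that are not recycled, by translation of another reading frame, or from structured RNA and RNA-protein complexes that withstand nuclease. Short reads can also come from a different transcript that shares the sequence.

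Total RPF counts per library ranged from 6765065 to 40174168, of which Cdk8 alone took 36.67% to 63.43%. The targeted gene, Fmr1, stood at 64.59 to 67.83 CPM in WT pellet, at 4.787 to 4.928 in KO pellet, at 5.983 to 10.74 in KO fraction 5/6, and at 100.1 and 68.57 in 2 WT fraction 5/6 libraries. The third library with the WT fraction 5/6 label had 3.172, below every KO library and against that label. It also lay within the pellet range for genes that separated the fractions, which puts its fraction label in doubt as well (genes chosen after their values were seen). Arfgef3, a regulator of secretory granules, stood at 243.7 CPM in it, at 136.7 to 252.4 in the pellet and at 40.07 to 80.06 in the other fraction 5/6 libraries. Slc1a3, an astrocyte glutamate transporter, stood at 106.6, at 52.09 to 107.4 and at 21.97 to 40.38 in the same order. With this library left out, 1461 of the 3' UTR peaks on 240 genes and 746 sites remained, 73.79% of the peaks lay at another feature or copy against 74.08% with it, and 37.53% of sites were found in 2 or more libraries against 39.05%.

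The sequences at 5 sets of sites are shown first, each 30 nt of GRCm38 read 5′ to 3′ and taken with GENCODE vM21 transcripts, because they show which kinds of bases the peaks sat on. Peaks next to the stop codon are shown by H3f3b (histone H3.3; chr11:116023388-116023417, minus strand), Rpl7 (a large-subunit ribosomal protein; chr1:16101345-16101741, minus strand, across an exon junction) and Hist1h2bc (a histone H2B; chr13:23684600-23692183, plus strand, across an exon junction), with the stop codon in capitals.
H3f3b: agagagctTAAgttgaagcggtttttatgg
Rpl7: gacggatgaacTAAggtgtcacccattgta
Hist1h2bc: cagctccaagTGAtcctgccaagaggagca

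Sites far into the 3' UTR at no other feature are shown by Eif1 (start codon selection; chr11:100321605-100321634, plus), Eif1b (its paralogue; chr9:120495153-120495182, plus), Pkia (an inhibitor of protein kinase A; chr3:7442223-7442252, plus), Ado (a thiol dioxygenase; chr10:67547965-67547994, minus) and Lars2 (the mitochondrial leucyl-tRNA synthetase; chr9:123461971-123462000 and chr9:123462093-123462122, plus). The capital is the base at the middle of the site.
Eif1: caaagcaatgacaagGtttcagccaagcca
Eif1b: gggaacgaagcccgaGtccgtcctaacatg
Pkia: ccatgtcacaagtggGgatggagcctgtgt
Ado: ccgcccggggaactgTgggccaaagatgta
Lars2: gcttgtggcggccaaGcgttcatagcgacg
Lars2 second site: agctgggattagaccGtcgtgagacaggtt

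The highest site lay in the 3' UTR of Tmem38b (an endoplasmic reticulum cation channel; chr4:53860754-53860783, plus), where the capitals mark bases inside the annotated 5S rRNA gene n-R5s185. The site in Nefm (neurofilament medium chain; chr14:68084308-68084337, minus) lies opposite the coding sequence of Nefl, and its capital is again the middle.
Tmem38b: ACCGGGTGCTGTAGGCTtgaaaaaaaaaac
Nefm: cagcaccaacagctcGgcttccaggacctt

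Copies of coding sequence are shown by 1 pair, with the bases that differ in capitals. The Slc7a11 run (the cystine and glutamate antiporter) is chr3:50370064-50370093 on the plus strand, opposite to its transcript, beside Tuba1c (an alpha-tubulin; chr15:99034247-99034276, plus).
Slc7a11 3' UTR: ttcagtgagacaggagAtgAcaagcatgtg
Tuba1c coding sequence: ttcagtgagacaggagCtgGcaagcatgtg
Counted from 1 at the 5′ end, with the coding base first, the differences were C17A and G20A.

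The first question was how much of the footprint signal lay past the stop codon. The 3' UTRs made up 46.64% of the joint length of 3' UTR and CDS on the listed transcripts (9441.7 kb and 10801.3 kb), and carried 0.1691 peaks per kb over the 12 libraries, against 24.98 per kb in the CDS. Counting just the peaks at no other feature, the 3' UTR density was 0.04385 per kb. The median height, the authors' unscaled signal at the peak, was 15 for 3' UTR peaks and 15 for CDS peaks, and by library it ran from 13 to 18 and from 14 to 16. Of the 1597 peaks, 21 were listed at height 0.

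Peaks were concentrated on few genes. The 10 genes with most held 746 of the 1597 peaks (46.71%), and 141 of the 251 genes had exactly 1. Of the 251 genes, 40 had a 3' UTR peak and no CDS peak in any library.

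Coding sequence of another transcript on the same strand lay at 700 peaks (43.83%) on 56 genes, at 394 sites. Their heights ran from 0 to 78 with a median of 13. Of these, 528 were on 23 predicted genes, with names that begin with Gm, and 140 were on another transcript of the gene itself. Gm20716 had most, with 215 peaks in 12 libraries at 123.5 to 3421.5 nt past its annotated stop, and these lay on the coding sequence of Adnp, a transcription factor of chromatin remodelling. The Adnp transcript was itself listed with 189 CDS peaks of the same median height, 14, and Gm20716 had no CDS peak. Gm20604 had 89 peaks on Moap1, a modulator of apoptosis, at a median height of 13 against 14 for the 48 peaks listed on Moap1. Gm49378 had 69 peaks on Ipo4, an importin, Pitpnc1 had 40 on another of its own transcripts, and Gm49318 had 29 on Elavl3, a neuronal RNA-binding protein. The transcripts of Gm20716, Gm49378 and Gm49318 are annotated as nonsense-mediated decay targets. The same footprint was seldom listed on both transcripts, since a peak on the partner within 6 nt in the same library was found for 87 of the 558 peaks whose partner transcript was listed.

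Coding sequence of another gene on the opposite strand lay at 338 peaks (21.16%) on 30 genes, with a median height of 17 and a range of 0 to 143. B3gat2, a glucuronyltransferase, had 62 peaks opposite Smap1. Nefm had 51 peaks in 12 libraries at heights of 29 to 143, opposite Nefl, the neurofilament light chain. Eif2ak1, a kinase of the translation factor eIF2, had 41 peaks opposite Aimp2, Acat3 had 36 opposite Tcp1, a chaperonin subunit, and Pdzd9 had 23 opposite Uqcrc2, a subunit of respiratory complex III.

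These loci differed in whether the coding gene had listed peaks of its own where the opposite 3' UTR overlapped it. The Nefm 3' UTR covers 861 nt of the Nefl coding sequence (52.76%), and 1 of the 70 Nefl CDS peaks lay in that stretch. Of 23 Tcp1 peaks none lay in the 217 nt (12.99%) covered by Acat3, and of 15 Uqcrc2 peaks none lay in the 84 nt (6.167%) covered by Pdzd9, stretches short enough that few would fall there. Elsewhere 27 of 73 Smap1 peaks lay in the 33.48% covered by B3gat2 and 11 of 44 Aimp2 peaks in the 40.39% covered by Eif2ak1. Peaks of the coding gene were dense in the covered part at Exosc9 (20 of 51 in 12%, opposite Ccna2), at Gnas (10 of 20 in 15.7%, opposite Gm20721) and at Ube2e1 (13 of 46 in 16.84%, opposite Nkiras1). Whether peaks were called by strand is not given in the sources used here, so 3' UTR peaks opposite a coding sequence cannot be told apart from footprints of that coding sequence.

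The site of Nefm shown above, 502 nt past the stop codon, was found in 7 libraries. Its height was 114 in WT pellet replicate 2, 118 and 91 in KO pellet replicates 1 and 2, 129 and 60 in WT fraction 5/6 replicates 1 and 2, and 53 and 105 in KO fraction 5/6 replicates 1 and 2. Pellet and fraction 5/6 heights overlapped. Gene counts for Nefl ranged from 338.5 to 622 CPM over the 12 RPF libraries and for Nefm from 538 to 1014.3 CPM.

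The copies of coding sequence, from other chromosomes, at least 30 nt long and at least 90% identical, lay at 127 peaks (7.952%) in the 3' UTRs of 2 genes, Slc7a11 and Lrrc58. In Slc7a11 they matched Tuba1c on the opposite strand, and in Lrrc58 they matched the actins Actb, Acta1 and Actg1 on the same strand. Of its 69 peaks, Slc7a11 had 3 at no other feature or copy, and no CDS peak. Lrrc58 had 74 3' UTR peaks and 123 CDS peaks.

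The Slc7a11 site shown above, 2224 nt past the stop codon, was 1 of 2 sites found in all 12 libraries. Its height was 121, 65 and 56 in WT pellet, 99, 89 and 63 in KO pellet, 25, 35 and 40 in WT fraction 5/6 and 37, 128 and 23 in KO fraction 5/6. All 6 pellet heights were above the WT fraction 5/6 heights, but 1 KO fraction 5/6 library was the highest of the 12. In CPM, Slc7a11 ran from 45.98 to 126.7 in RPFs and from 13.13 to 22.68 in RNA-seq of whole brain homogenate.

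Structural RNA genes lay at 18 peaks (1.127%), and among them was the site with the greatest height. The Tmem38b site, 669 nt past the stop codon, was the other site found in all 12 libraries. Its height was 16900, 7986 and 5837 in WT pellet, 14183, 5246 and 20030 in KO pellet, 5030, 5445 and 25118 in WT fraction 5/6 and 83779, 42666 and 4305 in KO fraction 5/6. Each group spanned a wide range and all 4 groups overlapped, with the library labelled WT fraction 5/6 replicate 3 giving the 25118. Of the 24 nt of the interval, 13 lay inside the 5S rRNA gene (chr4:53860652-53860770), at its 3′ end. Tmem38b had no CDS peak, and its counts ran from 373.7 to 8246.8 CPM in RPFs against 2.862 to 4.974 in RNA-seq. The other structural RNA peaks were 5 in Hes7, a repressor of the segmentation clock, at a tRNA gene, and 1 in Hist3h2a at a miRNA gene.

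**Figure D1:**
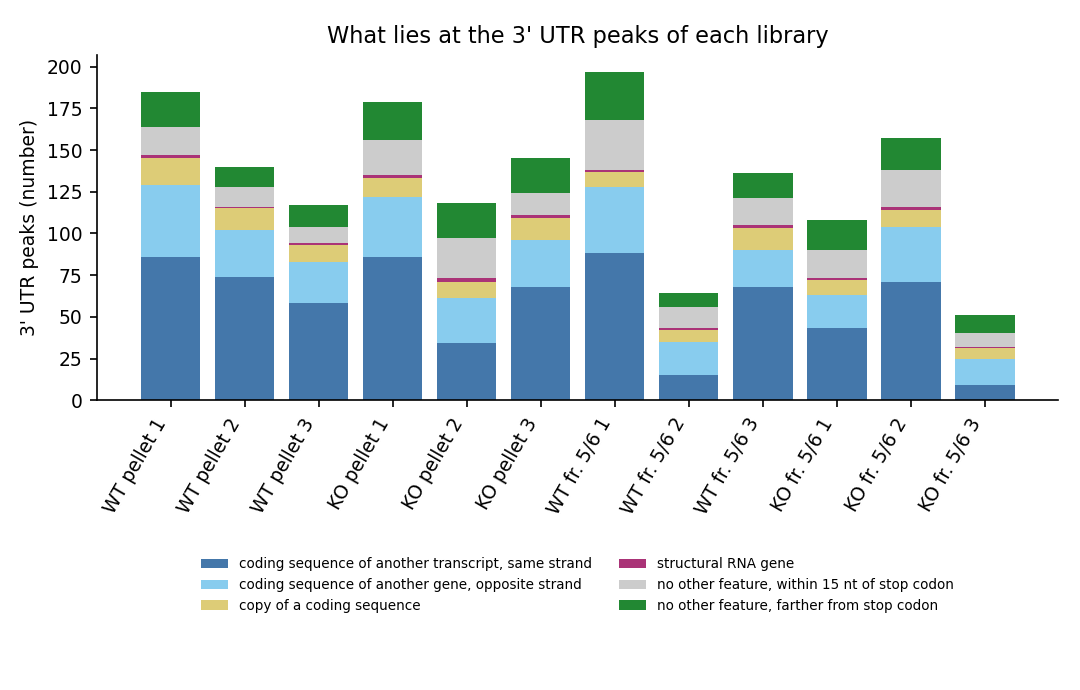
Number of 3' UTR peaks in each of the 12 libraries (fr. 5/6 is fraction 5/6), stacked by what else is annotated at the peak. Coding sequence of another transcript on the same strand was 43.83% of all 1597 peaks, and the grey and green parts, with no other feature, were 25.92%.

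Peaks at no other feature numbered 203 within 15 nt of the stop codon, on 137 genes, and 211 farther than 15 nt, on 43 genes. Around the stop codon the number of peaks fell steeply. Counting all peaks, 425 had their middle 18 nt before the last base of the stop codon, which was the highest position, 368 at 12 nt before, 68 at 1 nt before, 34 at 1 nt past, 22 at 5 nt past and 4 at 10 nt past. Positions were rounded down, so a middle between the last base of the stop codon and the next base is counted at the stop codon here. In the 15 nt after it there were 201 peaks, and in each of the next 3 stretches of that length there were 40, 40 and 31, against 3991 and 3676 in the stretches from 60 to 46 and from 45 to 31 nt before it.

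Of the 201 peaks, 141 lay in the first 5 nt and 49 in the next 5. The median interval was 25 nt long, so a peak with its middle there still reached back to the stop codon. On the 5′ side of the CDS the most frequent middle was 14 nt past the first base of the start codon (516 peaks), and no correction for the position of the ribosome's active site was made, so peaks in these first nucleotides cannot be told apart from ribosomes on or before the stop codon. TGA was the stop codon of 81 of the 137 genes with such peaks (59.12%) and of 49.39% of the 6208 listed transcripts.

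**Figure D2:**
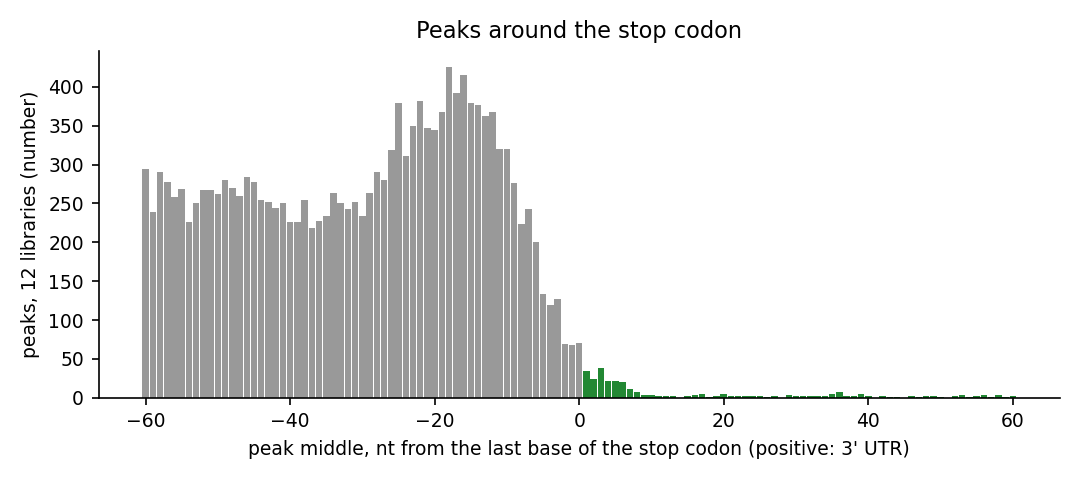
Number of peaks of the 12 libraries together by the position of the peak's middle, in nt from the last base of the stop codon (grey: CDS, green: 3' UTR). The count falls from 425 at 18 nt before to 34 at 1 nt past and 4 at 10 nt past the stop codon.

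Of the sites centred past the stop codon and within 15 nt of it, the most recurrent was that of H3f3b, at 5 nt, in 7 libraries. Its height was 14 and 14 in KO pellet replicates 1 and 2, 28, 12 and 14 in WT fraction 5/6, and 22 and 16 in KO fraction 5/6 replicates 1 and 2. It was found in no WT pellet library. Rpl7, 2 nt past its stop codon, was found in 6 libraries at heights of 14 to 58, and Hist1h2bc, 3 nt past, in 6 libraries at heights of 17 to 37. Both were found in pellet and in fraction 5/6. Of the 37 sites centred at or before the stop codon, that of Tpt1 (the translationally controlled tumour protein) held the most 3' UTR peaks, 7 of its 8, with the remaining 1 centred on the last base of the stop codon. The 3' UTR heights were 22 in WT pellet replicate 2, 16 and 17 in KO pellet replicates 1 and 2, 20 and 25 in WT fraction 5/6 replicates 2 and 3, and 28 and 21 in KO fraction 5/6 replicates 2 and 3. They too came from both fractions and genotypes.

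Farther into the 3' UTR, the Eif1 site at 259 nt past the stop codon was found in 11 libraries. Its height was 20, 24 and 14 in WT pellet, 26, 18 and 15 in KO pellet, 25 and 15 in WT fraction 5/6 replicates 1 and 3, and 25, 27 and 13 in KO fraction 5/6. The values of the 4 groups overlapped. Eif1 had 30 CDS peaks in the 12 libraries, and its gene counts ran from 11.61 to 43.18 CPM in RPFs against 234.5 to 275.2 in RNA-seq.

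Eif1b had 17 peaks at 141 to 213.5 nt past the stop codon in 10 libraries, with heights of 17 to 57 and a median of 31. Pkia had 34 peaks in all 12 libraries, at 15 sites from 17 to 3216.5 nt, with heights of 6 to 28 and a median of 16. Their RPF counts, 24.09 to 85.9 CPM for Eif1b and 28.52 to 122.1 for Pkia, were below those in RNA-seq, 99.52 to 120.3 and 664.8 to 806.3.

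Lars2 held the highest peaks at no other feature. At 308 nt past the stop codon its height was 1490, 514 and 367 in WT pellet, 1305, 1682 and 1548 in KO pellet, 696 and 926 in WT fraction 5/6 replicates 1 and 2, and 2275 and 2250 in KO fraction 5/6 replicates 1 and 2. In fraction 5/6, KO replicates 1 and 2 were above WT replicates 1 and 2, whereas in the pellet WT replicate 1 lay among the KO values. KO fraction 5/6 replicate 3 had no peak joined to this site, and the heights are unscaled. Lars2 gene counts in fraction 5/6 overlapped, at 1531.1, 1009.6 and 346.9 CPM in KO and 428.6, 1137.5 and 807.6 in WT. In the library labelled WT fraction 5/6 replicate 3 the peak was listed 298 nt past the stop codon, over 6 nt away, at a height of 1611, and this value lay between the other WT and the KO heights. The second Lars2 site, at 430 nt, was found in 9 libraries at heights of 96 to 741.

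Lars2 had no CDS peak in any library. Its gene counts ran from 285.9 to 1531.1 CPM in RPFs, and in RNA-seq from 12.39 to 36.21 in 5 of 6 libraries with 432.7 in KO replicate 2. The large-subunit rRNA sequence was not among the features searched, so whether these Lars2 bases match it was not tested.

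**Figure D3:**
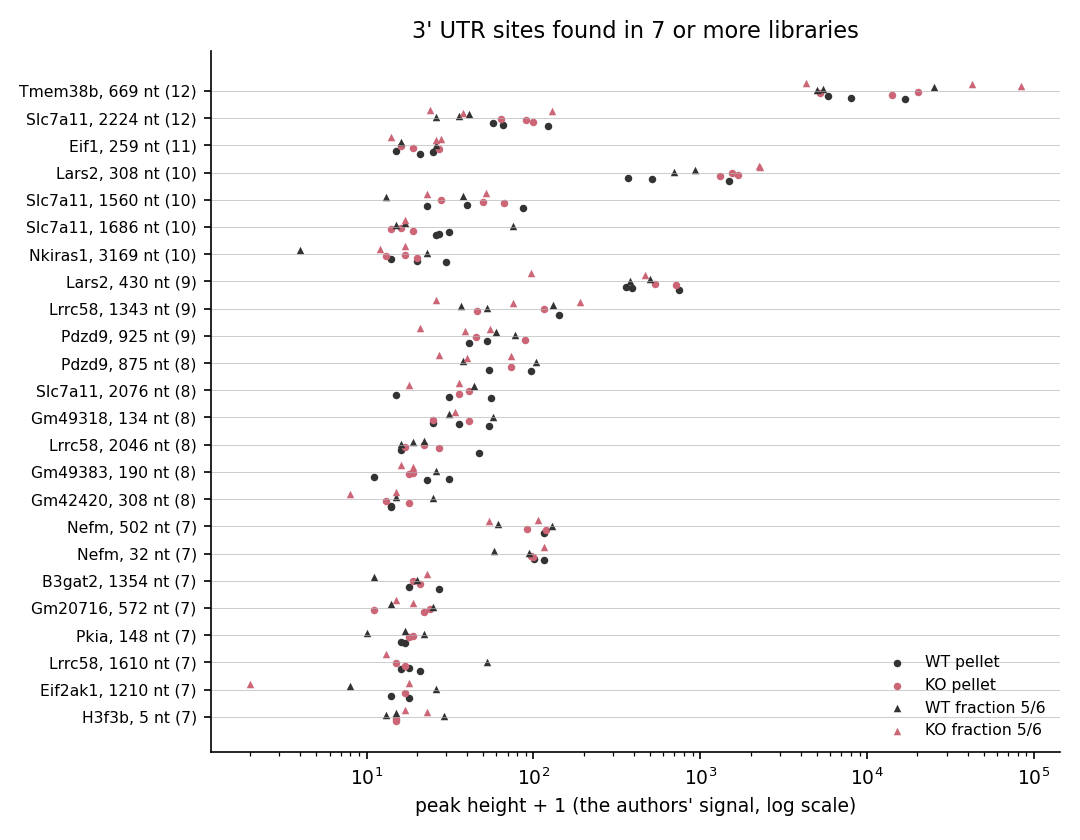
Height + 1 on a log axis at the 3' UTR sites found in 7 or more libraries, 1 point per library with a peak (circles: pellet, triangles: fraction 5/6, black: WT, red: KO). Labels give the gene, the distance past the stop codon and, in brackets, the number of libraries. Tmem38b (4305 to 83779) and Lars2 at 308 nt (367 to 2275) stand above the other sites, while Lars2 at 430 nt (96 to 741) overlaps them at its lowest value.

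A ribosome that reads through a stop codon stops at the next one in the same frame, so the positions of the 211 peaks were compared with it. Of these, 54 (25.59%) on 13 genes lay before the next in-frame stop codon. That codon was a median of 81 nt away on the transcripts with such peaks. No share expected from the length of these stretches, or from the other frames, was computed, and readthrough was not tested. Ado had 14 of them in 8 libraries, from 19 to 77.5 nt past the stop codon, and its next in-frame stop codon was 84 nt away. Lor (loricrin) had 12 in 11 libraries, with the next stop at 111 nt, Api5 (an apoptosis inhibitor) 7 in 7 libraries, with the next stop at 87 nt, and Fam181b 7 in 7 libraries, with the next stop at 129 nt. Samd1, a protein that binds unmethylated CpG, had 5 in 4 libraries. The site of Ado shown above, 24 nt past the stop codon, had heights of 13 to 16 in its 6 libraries.

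The peaks cannot show a reading frame by themselves. Middles of CDS peaks were spread over the 3 codon positions, 32.55%, 34.38% and 33.07%, so the lists carry no periodicity.

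Genes with known events past the stop codon were counted by group. None of the 5 genes with peaks on a list of mammalian stop codon readthrough had a peak there, nor did any of 11 selenoprotein genes, in which UGA codes for selenocysteine, or of 3 genes with programmed frameshifting. The same was true of 14 mRNAs localised to dendrites or axons through their 3' UTR and of 13 tubulins, Tubb2b among them. Of 77 cytosolic ribosomal protein genes 1 had a 3' UTR peak, Rpl7. Over all genes with a peak the share was 4.048%. At that share 0.202, 0.445, 0.121, 0.567 and 0.526 genes would be counted in the first 5 groups and 3.12 among the ribosomal proteins, so groups this small are not set apart by a count of 0.

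Short motifs were counted in 35 nt windows around the sites, on the sense strand, against windows of the same length tiling the 3' UTRs of the same transcripts. GGGG, a run that quadruplex structures are built from, was in 23.53% of the windows at sites with no other feature and in 10.48% of the tiles. Over all 781 sites it was in 11.14%, against 9.928% of their tiles. Of 6 motifs reported for FMRP, which may overlap each other, 5 had a higher share at the sites with no other feature than in the tiles. GACG was in 7.353% and 2.009%, and GACA was in 16.67% and 11.64%. AGGA was in 18.63% and 15.60%. ACTG was in 17.65% and 14.73%, and TGGA was in 16.18% and 15.22%. The exception was ACTT, in 6.863% and 14.54%. Of the 204 sites, however, 106 lay within 15 nt of the stop codon, where the window also holds coding sequence, which the tiles do not. At the other 98 sites 3 of the 6 motifs had a higher share than in the tiles, GACA in 19.39%, GACG in 7.143% and ACTG in 17.35%. There TGGA was in 14.29%, AGGA was in 13.27% and ACTT was in 3.061%, and GGGG was in 27.55%. The polyadenylation signal AATAAA was in 0.4902% of windows at the 204 sites, in 1.02% at the 98 and in 2.08% of the tiles. GC content was 52.21% at the 204 sites, 51.9% at the 98 and 44.59% in the tiles, and its part in these shares was not tested.

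The second question was whether loss of FMRP or the gradient fraction moved the share of peaks past the stop codon. It was 0.5113%, 0.5746% and 0.5428% of all peaks in WT pellet and 0.5653%, 0.6392% and 0.5742% in KO pellet. In fraction 5/6 it was 0.6584%, 0.5185% and 0.5866% in WT and 0.6274%, 0.6442% and 0.4509% in KO. WT and KO overlapped in both fractions.

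The means were 0.5429% ± 0.0317 (SD, n = 3) and 0.5929% ± 0.0403 (SD, n = 3) in WT and KO pellet, a difference of 0.0499 percentage points (exact permutation test, two-sided, p = 0.3, where 3 against 3 libraries can reach 0.1). It was 0.0206 for peaks over 15 nt past the stop codon (exact permutation test, p = 0.3). On protein-coding transcripts it was 0.0729, and without peaks in other coding sequence 0.0716 (exact permutation test, p = 0.1 for each, the smallest possible). In fraction 5/6 they were 0.5878% ± 0.07 and 0.5742% ± 0.107 (SD, n = 3 each), a difference of -0.0137 (exact permutation test, two-sided, p = 0.8). With the third WT-labelled library left out this difference was -0.0143 (exact permutation test, p = 0.8). Pellet minus fraction 5/6 was -0.0131 percentage points over 6 against 6 libraries (exact permutation test, p = 0.734), with -0.0449 in WT (p = 0.4) and 0.0187 in KO (p = 0.9), and -0.012 with the third WT-labelled library of fraction 5/6 left out (exact permutation test, p = 0.784). The KO effect did not differ detectably between the fractions (exact permutation within fractions, p = 0.415), in a test run just with that library kept in.

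**Figure D4:**
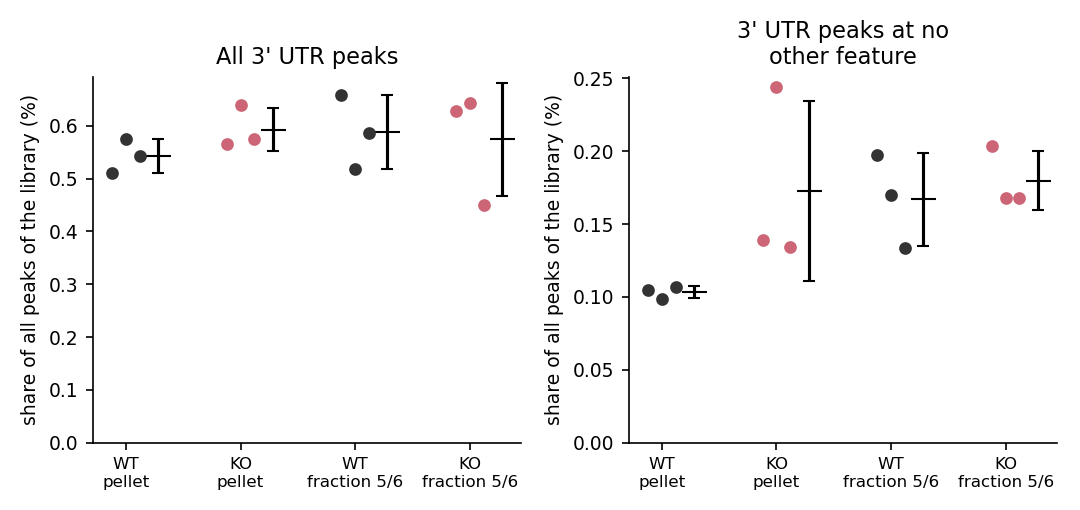
Share of all peaks of a library that lay in a 3' UTR, for all 3' UTR peaks (left) and for those at no other feature (right), 1 point per library with the group mean and SD beside it. At left the groups overlap, and at right the KO pellet libraries (0.1346% to 0.2437%) lie above the WT pellet libraries (0.09851% to 0.1067%).

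Heights relative to the CDS did not differ past the threshold. The log2 ratio of the median 3' UTR height to the median CDS height was 0.06 ± 0.14 (SD, n = 3) in WT pellet, 0.03 ± 0.10 in KO pellet, 0.10 ± 0.18 in WT fraction 5/6 and 0.07 ± 0.15 in KO fraction 5/6. KO minus WT was -0.03 in the pellet (exact permutation test, p = 0.6) and -0.03 in fraction 5/6 (exact permutation test, p = 0.8; -0.13 and p = 0.5 with the third WT-labelled library left out), and pellet minus fraction 5/6 was -0.05 (exact permutation test, p = 0.532; -0.08 and p = 0.26 without the same library).

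The peaks at no other feature were compared in the same way, a choice made after seeing the data. Their share of all peaks was 0.105%, 0.09851% and 0.1067% in WT pellet and 0.1389%, 0.2437% and 0.1346% in KO pellet, so that each KO pellet library was above each WT pellet library. In fraction 5/6 it was 0.1972%, 0.1701% and 0.1337% in WT and 0.2033%, 0.1682% and 0.168% in KO, and the groups overlapped. The pellet difference was 0.0693 percentage points with the other 3' UTR peaks taken out of the total (exact permutation test, two-sided, p = 0.1, the smallest that 3 against 3 libraries allow, so the test cannot pass 0.05), and that in fraction 5/6 was 0.0129 (exact permutation test, p = 0.6). The fraction 5/6 difference, of all peaks, turned from 0.0128 to -0.00382 when the third WT-labelled library was left out. KO pellet replicate 2, in which Cdk8 took 63.43% of counts, the most of the 12, carried much of it: of all peaks the difference was 0.069 with it and 0.0334 without, and the groups still did not overlap. The difference between the fractions in this effect was not past the threshold (exact permutation within fractions, p = 0.335).

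The third question was whether the same positions came back. Of 781 sites, 305 (39.05%) were found in 2 or more libraries, against 38.74% of 142944 CDS sites, and 38 (4.866%) in 6 or more, against 4.258%. With the 37 sites centred at or before the stop codon added, 342 of 818 (41.81%) were found in 2 or more libraries and 49 (5.99%) in 6 or more. Among the 204 sites at no other feature 59 (28.92%) were found in 2 or more, on 39 genes. Of the 305 recurrent sites, 237 (77.70%) were found in both pellet and fraction 5/6, 48 (15.74%) in the pellet alone and 20 (6.557%) in fraction 5/6 alone, beside 71.56%, 19.61% and 8.83% of recurrent CDS sites. The pellet libraries also had more peaks. By genotype 234 (76.72%) were found in both, 48 (15.74%) in WT alone and 23 (7.541%) in KO alone, beside 75.58%, 14.19% and 10.22% of CDS sites. With the third WT-labelled library of fraction 5/6 left out, 37 of 280 recurrent sites (13.21%) were found in WT alone and 32 (11.43%) in KO alone, beside 11.13% and 13.17% of CDS sites. Then 64 (22.86%) were found in the pellet alone and 14 (5.0%) in fraction 5/6 alone, beside 25.8% and 7.149% of CDS sites.

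For each pair of libraries, the number of 3' UTR peaks matched within 6 nt was divided by the smaller number of peaks. It averaged 26.2% ± 6.18 (SD over 66 pairs, which share libraries; range 15.62% to 43.75%), against 21.92% ± 2.53 for CDS peaks, and was the higher of both in 53 of 66 pairs. For the peaks at no other feature alone it averaged 23.81% ± 8.08. Of all 3' UTR peaks in the pellet, pairs of 1 genotype shared 25.08% and pairs of different genotype 25.88%, a difference of -0.80 (exact permutation over libraries, one-sided, p = 0.6). Pairs of 1 fraction shared 26.36% and pairs across fractions 26.07%, a difference of 0.29 (exact permutation over libraries, one-sided, p = 0.398). Without the third WT-labelled library of fraction 5/6 these were 27.17% and 26.25%, a difference of 0.918 (exact permutation over libraries, one-sided, p = 0.277).

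**Figure D5:**
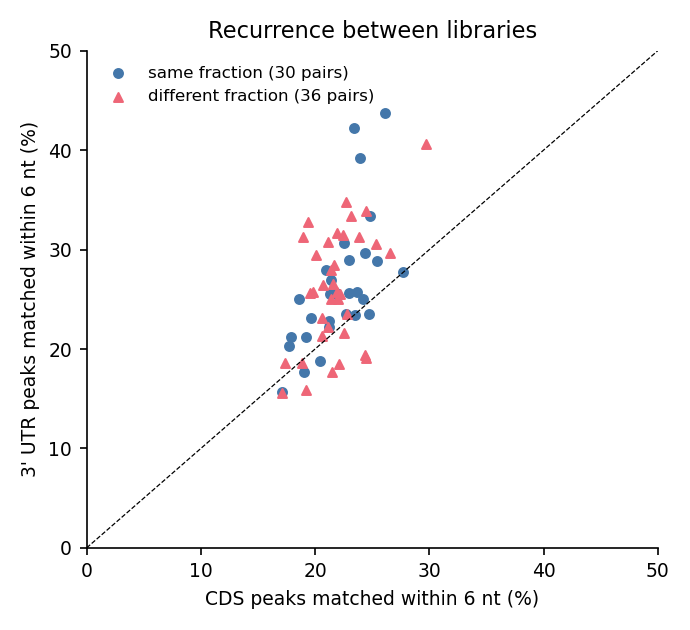
Share of 3' UTR peaks (vertical axis) and of CDS peaks (horizontal axis) matched within 6 nt, for each of the 66 pairs of libraries (circles: same fraction, triangles: different fraction). The dashed line marks equal shares, and 53 of the 66 pairs lie above it.

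Sites found in every library of a group and in none of the other were few. Of the 74 3' UTR sites found in 3 or more pellet libraries, 1 was in all 3 WT pellet libraries and in no KO pellet library, where 3.21% of sites of any region were. It lay in Gm20716, 1813 nt past the stop codon, with heights of 22, 16 and 13. In all 3 KO pellet libraries and in no WT pellet library there were 5 of 74, where 2.07% of sites of any region were. They were in Hes7 at the tRNA gene (37, 14 and 14), in Nr1d1, a nuclear receptor of the clock, opposite Thra (23, 8 and 15), in Gm20604 (13, 5 and 12) and at 2 places in Gm20716 (21, 10 and 23, and 21, 11 and 15). All 5 were also found in fraction 5/6, and all lay at another annotated feature. None of 38 sites was in all 6 libraries of 1 fraction and absent from the other, where 0.112% (pellet) and 0.0479% (fraction 5/6) of sites of any region were. With the third WT-labelled library of fraction 5/6 left out there was again none, of 32 sites for the pellet and 60 for fraction 5/6.

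Heights at sites found in every library of a comparison were tested with limma on log2(height + 1), each library centred on its median. Between KO and WT pellet, 546 sites could be tested, 7 of them in a 3' UTR, and no site was called at an adjusted p under 0.05 (0% of all sites tested, 29 with an unadjusted p under 0.05, 1 of them in a 3' UTR). That one was Lars2 at 308 nt, higher in KO by 1.40 (SE 0.34, limma adjusted p = 0.689), and it was called without WT pellet replicate 1, whose height of 1490 lay among the KO values (1.72, limma adjusted p = 0.0441). In fraction 5/6, 355 sites could be tested, 3 of them in a 3' UTR, and again none was called (0%, 20 with an unadjusted p under 0.05, 0 of them in a 3' UTR). Tmem38b was higher in KO by 1.61 with an SE of 0.92 (limma adjusted p = 0.717), and was called when libraries were scaled by their total counts without Cdk8 (2.07, limma adjusted p = 0.00206), a scaling under which the median of all sites moved to 0.42.

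Between pellet and fraction 5/6, 180 sites were found in all 12 libraries, 2 of them in a 3' UTR, and none was called (0%, 30 with an unadjusted p under 0.05, 1 of them in a 3' UTR). Slc7a11 at 2224 nt was higher in the pellet by 0.81 (SE 0.33, limma adjusted p = 0.265), and Tmem38b was lower by -0.69 (SE 0.62, limma adjusted p = 0.537). Without the third WT-labelled library of fraction 5/6, 205 sites could be tested, 2 of them in a 3' UTR, and neither of these was called (lowest limma adjusted p 0.107, 1 with an unadjusted p under 0.05). In these pooled brains a change in height cannot be told apart from a change in which cells were sampled.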

How the data were processed

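The authors trimmed and demultiplexed reads with Cutadapt 2.10, removed rRNA and ncRNA reads with Bowtie2 2.3.5, aligned to GRCm38 with STAR 2.7.8a, removed PCR duplicates with Picard and SAMtools 1.19.2 and counted with featureCounts 2.2.0. The deposited count table holds raw counts per gene and library. The deposited peak lists hold a transcript, an interval and a height, a signal not scaled between libraries. Per the study's methods a peak is a zenith of RPF abundance, and whether its threshold was applied to the lists is not given in the sources used here.

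Of 278002 listed peaks 2177 were left out: 29 of 6259 transcripts were not in the annotation, 6 ended before an interval, and others lacked a CDS or stop codon (44 of the peaks past a transcript's end lay 3' of the stop codon). Copies of coding sequence were searched with blastn 2.17.0 in 35 nt windows. Structural RNA genes were padded by 10 nt. Shares, ratios and recurrence were compared by exact permutation over libraries (numpy 2.4.6). Heights were compared by limma 3.58.1 in R 4.3.3 with Benjamini-Hochberg adjustment over all sites of a comparison and a pseudocount of 1. On simulated heights for the 546 pellet sites, with 100 sites changed by each size, 85% of changes of log2 1 and 97% of log2 2 were recovered, with 3.704% false calls; with fewer changed sites the adjustment is stricter. CPM leave out Cdk8. The count table gives no depth per peak, so heights carry no counting interval.

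The members and lists were chosen with earlier results of these data known. The rule named the highest sites found in all 12 libraries, called sites, sites of 1 group and the 5 genes with most recurrent sites; Lars2, Eif1, Eif1b, Pkia, Ado, H3f3b, Rpl7, Hist1h2bc, Nefm and other genes given as examples were chosen after their values were seen. The low-nuclease libraries have no peak list used here, and the study's own target lists were not used. The sequence of 1 further copy of a coding sequence is not reported here.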

Additional observations from a re-analysis of the deposited data

How the results depend on the processing

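Of the 132 exact tests under an alternative none passed 0.05, but 71 had 20 or fewer arrangements and could not. The sign changed in 26 of them, always of a difference that was itself not past the threshold, and the cause was not tested. For the 3' UTR share, KO minus WT in fraction 5/6 became 0.0149 without peaks in other coding sequence, 0.00605 on protein-coding transcripts, 0.0129 at no other feature and 0.0178 at no other feature over 15 nt past the stop codon, and pellet minus fraction 5/6 became 0.00977 over 15 nt past the stop codon and 0.00589 with the 11311 highest peaks of each library. For the log2 height ratio, KO minus WT in the pellet became 0.0566 on protein-coding transcripts, 0.15 with equal numbers, 0.029 at or above the median height and 0.0241 at no other feature, and in fraction 5/6 it became 0.0433 with equal numbers, 0.0649 at or above the median height and 0.13 at no other feature over 15 nt past the stop codon. Recurrence by genotype became 1.09 with matches within 3 nt and 0.489 within 12 nt, and by fraction -0.174 at or above the median height. Settings at no other feature were chosen after seeing the data.

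Leaving out each library in turn gave 0.0268 to 0.0658 (share, pellet, KO minus WT), -0.0487 to 0.048 (share, fraction 5/6) and -0.0391 to 0.00237 (share, pellet minus fraction 5/6). Height ratios ran from -0.104 to 0.0308, from -0.132 to 0.052 and from -0.0831 to -0.0136 for the same 3 comparisons, and recurrence from -1.45 to -0.206 by genotype and from -0.565 to 1.65 by fraction. Of 45 limma fits under an alternative, 2 called a 3' UTR site, 1 each: Lars2 without WT pellet replicate 1 and Tmem38b in fraction 5/6 scaled by totals without Cdk8. Leaving out each library in turn gave 0 to 1 called in the pellet and 0 in the other comparisons.

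Replicate numbers did not pair the libraries (correlation of same-numbered deviations from -0.44 to 0.71, the highest between KO pellet replicate 3 and the third WT-labelled library of fraction 5/6, which was also the highest of any pair between groups). With the replicate block the shares and height ratios kept their values, with exact p-values of 0.25 to 0.75 (3 pairs allow no p under 0.25, which the pellet share reached, as KO was above WT in all 3 pairs), recurrence was -3.17 by genotype and 1.24 by fraction, and limma called 0 3' UTR sites in each comparison. The few peaks per library (51 to 197) limit what can be detected.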
